A study of Mus musculus with 27 samples.

Results

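The 42 genes described here code for enzymes of amino acid metabolism, most of which break down amino acids. They were taken by their symbols from a list set by amino acid pathway, and are 42 of the 19392 genes in the deposited table. RNA-Seq was performed on the left kidneys of 27 C57BL/6 mice, with 3 kidneys at each of 9 warm ischemia times. In every mouse the right kidney was removed, and the left renal pedicle was clamped for 0 (sham), 16, 18, 20, 22, 24, 26, 28 or 30 min on a platform held at 37 °C. All kidneys were taken after 24 h of reperfusion, so the sham kidneys also came from mice with a single kidney. The question of the study was how the injury changes from mild to severe as the ischemia time becomes longer. The values are FPKM, which correct fragment numbers for transcript length and for the reads of each library, so levels can be set side by side between genes.

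Most of these enzymes are used by the proximal tubule, the segment that takes back filtered amino acids. Branched-chain amino acids lose their amino group, are decarboxylated by a shared dehydrogenase complex and end as acetyl-CoA, acetoacetate or propionyl-CoA in the mitochondrion. Tyrosine is opened to fumarate and acetoacetate, glycine is cleaved by a mitochondrial complex, and the kidney also makes guanidinoacetate, the precursor of creatine, from arginine and glycine. D-amino acids and pipecolate are oxidized in peroxisomes.

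All 42 enzymes were above 0 FPKM in every kidney and all passed the filter on low values. The lowest value was 1.62 FPKM, for Hpd in a 28 min kidney, and the highest was 485 FPKM, for Gatm in a 26 min kidney. In sham kidneys the highest means were those of Fah at 326 ± 8.19 FPKM (SD, n = 3), Gatm at 325 ± 27.2 FPKM and Hibadh at 325 ± 11.1 FPKM. The lowest sham means were those of Ddo at 23.3 ± 2.35 FPKM and Gnmt at 25.9 ± 3.03 FPKM. Together, their share of all FPKM in a library ranged from 0.313% to 0.951%.

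The kidneys carried the markers of their label. The summed FPKM of 10 proximal tubule genes, among them the phosphate transporter Slc34a1 and the endocytic receptor Lrp2, was between 4708 and 5335 in sham kidneys, and none of the 10 was at 0 in any kidney. Cps1, the hepatic urea cycle enzyme, was between 0 and 0.02 FPKM in all kidneys. Cps1 belongs to a list of 5 liver genes that were not absent as a whole. Their summed FPKM was between 74.4 and 89.3 in sham kidneys, 137 and 356 at 16 min, and 40.7 and 53.25 at 30 min. Some kidneys stood apart from their group. Havcr1, the tubular injury marker KIM-1, was at 35.1 FPKM in 16 min kidney 3 against 332 and 574 in the other two, and at 22.0 FPKM in sham kidney 3 against 2.81 and 2.49. Umod, a gene of the thick ascending limb, was at 2034 FPKM in 30 min kidney 3 against 454 and 463. The counts of enzymes called at 16 and 30 min are given with and without these kidneys.

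Against sham, most of the enzymes were lower at every ischemia time, and the fall was deeper at 28 and 30 min. A gene is said to have fallen or risen where its limma p-value was under 0.05 after Benjamini-Hochberg adjustment over all 18188 genes tested. A DEG also had an absolute log2 fold change above 1. At 16 min 27 of the 42 enzymes fell, where 9.61% of all genes tested fell. After 18 min 26 fell (all genes, 15.2%), after 20 min 23 (12.1%), after 22 min 27 (15.4%), after 24 min 27 (14.8%) and after 26 min 31 (15.2%). After 28 min 38 fell (23.6%), and after 30 min 39 (25.4%). One enzyme, Glud1, rose at 30 min, and none rose at the other times in this fit (Prodh2 did under some alternatives, given with its values), whereas 9.43%, 12.6%, 10.7%, 13.4%, 13.6%, 14.9%, 24.5% and 26.9% of all genes rose at the times from 16 to 30 min in order.

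Falls of more than 2-fold were few up to 26 min. Hpd alone was a lower DEG at 16 min (all genes, 0.979%), 18 min (1.09%), 20 min (0.962%) and 24 min (1.15%). With Gnmt there were 2 at 22 min (1.2%), and 5 at 26 min (1.61%). The number was 24 at 28 min (all genes, 4.21%) and 32 at 30 min (5.59%), and 24 enzymes were lower DEGs at both times. The share of all genes that were lower DEGs at both times was not counted, and cannot exceed 4.21%. No enzyme was a higher DEG at any time, where 1.28%, 1.97%, 1.55%, 2.09%, 1.97%, 2.16%, 4.27% and 5.14% of all genes were, in the same order. The median log2 fold change of the 42 enzymes lay between -0.56 and -0.43 from 16 to 26 min, and was -1.07 at 28 min and -1.37 at 30 min, against medians over all genes between -0.01 and 0.00. The median enzyme kept 74.9% of its sham mean after 16 min, 69.4% after 26 min, 47.3% after 28 min and 38.6% after 30 min. These 8 comparisons share the sham kidneys, so they are not independent of each other.

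**Figure D1:**
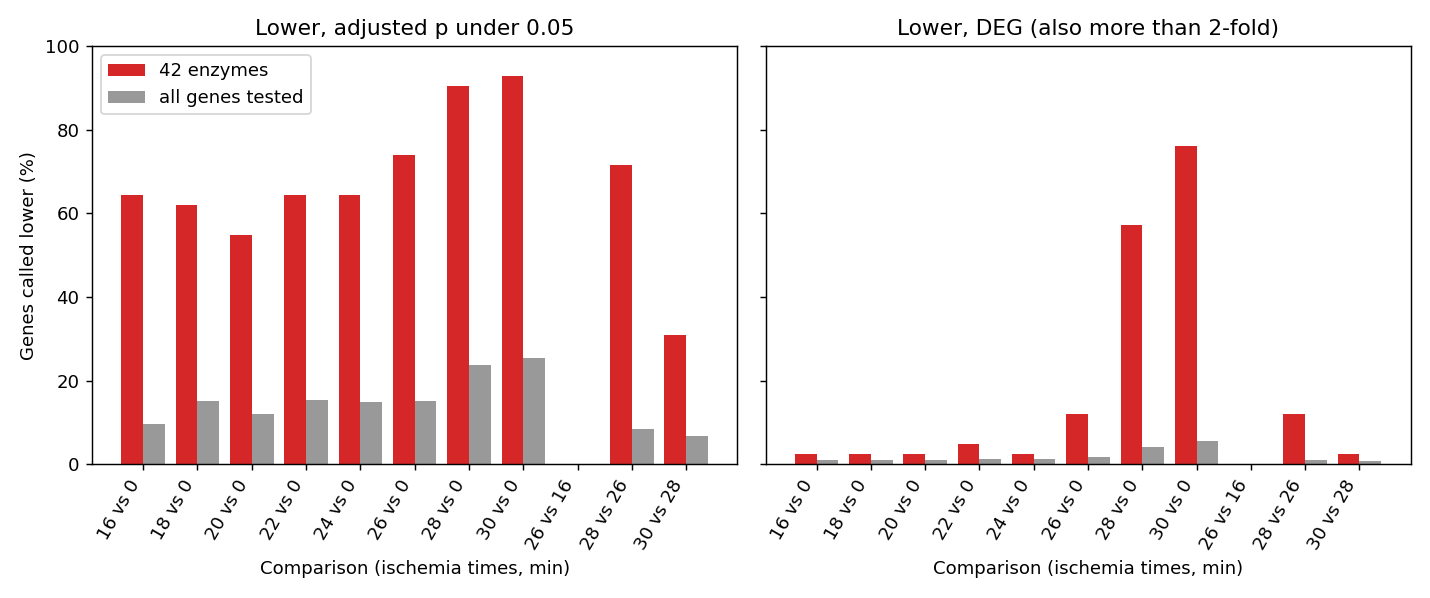
Share of genes called lower (%, from 0) by limma in each comparison of 2 ischemia times, for the 42 enzymes (red) and for all 18188 genes tested (grey), at an adjusted p under 0.05 (left) and as DEGs (right). The red bars stand above the grey bars in all comparisons but 26 against 16 min, where no gene was called, and the right panel steps up between 26 and 28 min, from 5 to 24 of the 42 enzymes.

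The single kidneys showed the same order. All 3 kidneys lay below all 3 sham kidneys for 26 enzymes at 16 min, where this held for 7.54% of all genes, for 38 enzymes at 28 min (all genes, 21.4%) and for 40 enzymes at 30 min (21.2%). The summed FPKM of the 42 enzymes was between 4952 and 5096 in sham kidneys. The range was 3258 to 4491 after 16 min, the highest of these being kidney 3, between 3041 and 3695 at 26 min, between 2232 and 2303 at 28 min, and between 1637 and 1953 at 30 min. The sum of the 10 proximal tubule markers was between 3655 and 4903 at 16 min, 3203 and 4342 at 26 min, 1890 and 2136 at 28 min, and 1096 and 1318 at 30 min. Of these markers 4 fell after 16 min (all genes, 9.61%), 5 after 26 min (15.2%), 6 after 28 min (23.6%) and 9 after 30 min (25.4%). The part of these markers in the result was not tested. In whole kidney, fewer cells of a type and less RNA per cell cannot be told apart.

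The 16 min result depended on which kidneys entered. Without 16 min kidney 3, 32 enzymes fell and 5 were lower DEGs. Without sham kidney 3, 21 fell, and without 16 min kidney 2, 16 fell. A limma fit of only the 16 and 0 min kidneys called none of the enzymes, with 22 at an unadjusted p under 0.05 and a lowest adjusted p of 0.0694. In that fit 8 of the 18188 genes were DEGs, where 410 were in the fit of all groups. The share of all genes at an unadjusted p under 0.05 is not given here. At 30 min, 39 enzymes fell and 32 were lower DEGs also without 30 min kidney 3. For the fits that left out a kidney the shares of all genes are not given here, so these counts have no background.

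**Figure D2:**
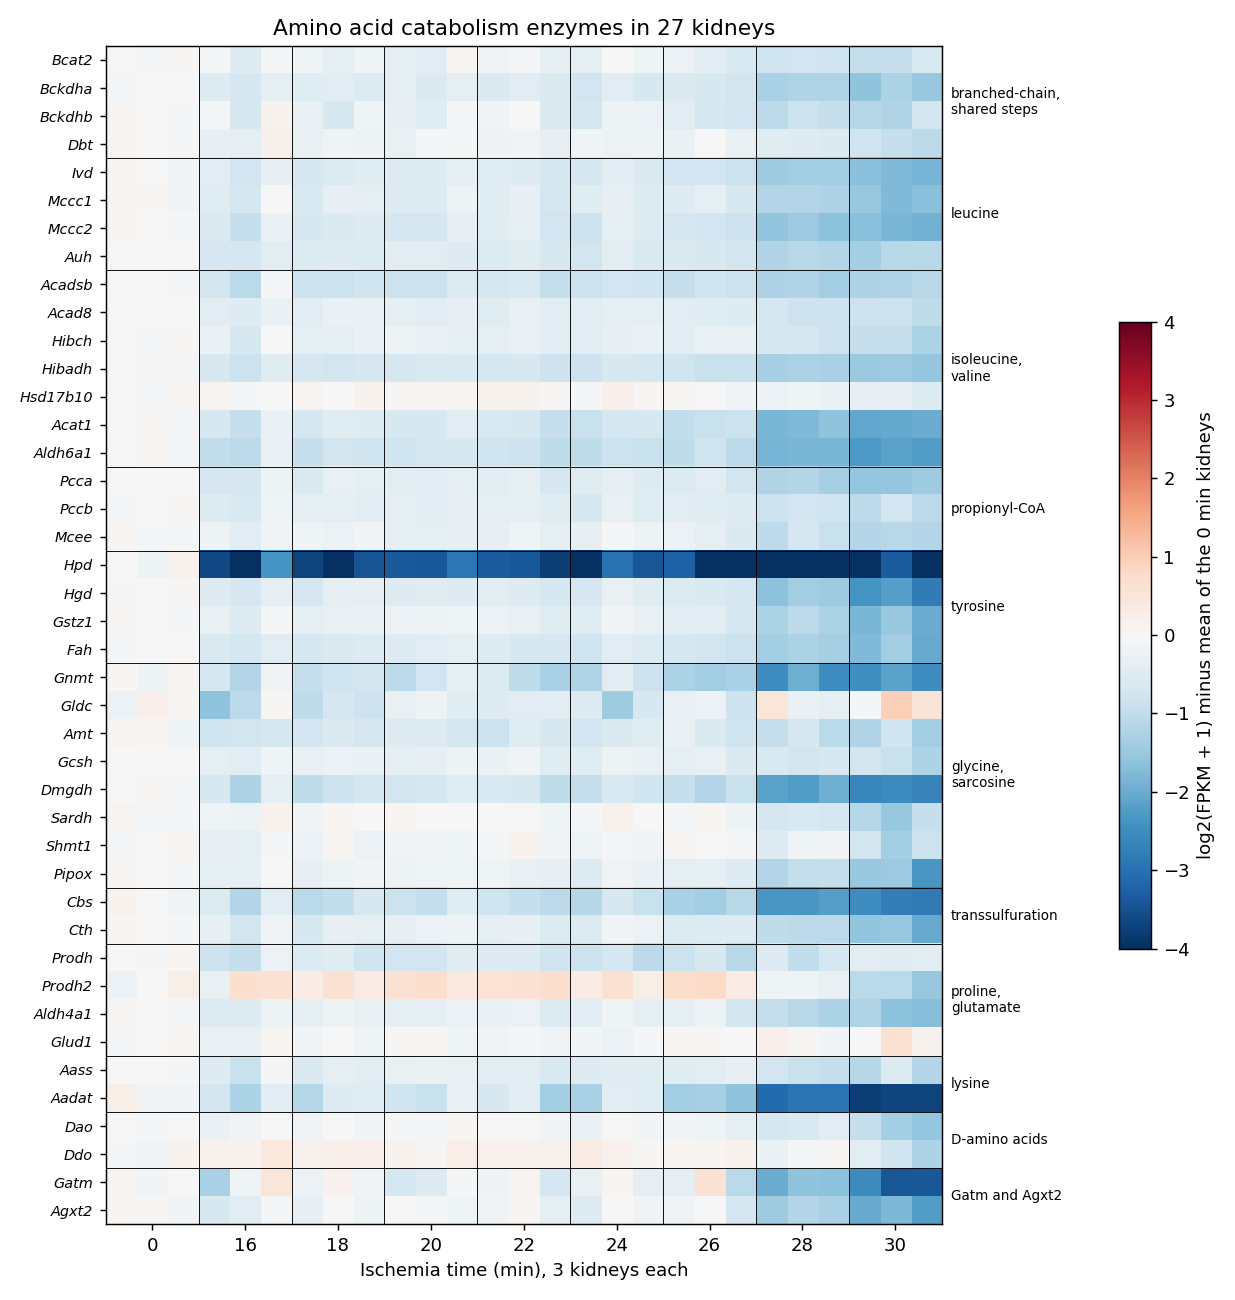
Heat map of the 42 enzymes (rows, by pathway) in the 27 kidneys (columns, 3 per ischemia time), as log2(FPKM + 1) minus the mean of the 3 sham kidneys, without quantile normalization, with colours limited to the range from -4 to 4. Hpd is dark blue in every kidney from 16 min on, most other rows are pale from 16 to 26 min and darker at 28 and 30 min, and Prodh2 is pale red from 16 to 26 min in most kidneys.

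At 30 min the median log2 fold change was -1.05 for the 4 genes of the shared first steps of branched-chain amino acid breakdown, -1.74 for the 4 of leucine and -1.25 for the 7 of isoleucine and valine, a difference that was not tested. Of Bcat2, the mitochondrial aminotransferase, Bckdha and Bckdhb, the E1 subunits of the branched-chain ketoacid dehydrogenase, and Dbt, its E2 subunit, only Bckdha passed at 16 min, and all 4 passed at 28 and 30 min. Bckdha (chr7:25629852-25658782, RefSeq on GRCm38.p6) had FPKM values of 149, 156 and 154 at 0 min, 106, 95.3 and 117 at 16 min, 103, 97.1 and 91.2 at 26 min, 61.4, 66.6 and 66.3 at 28 min, and 49.98, 62.5 and 52.8 at 30 min. Every sham kidney was above every clamped kidney listed, and the 28 and 30 min kidneys were the lowest. Its log2 fold change was -0.53 (SE 0.08, limma adjusted p = 0.000268) at 16 min and -1.43 (SE 0.08, limma adjusted p = 6.43e-11) at 30 min. Bcat2, Bckdhb and Dbt stood at 56.2%, 48.1% and 51.8% of their sham means at 30 min. Dbt passed at no time from 16 to 26 min.

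In the leucine branch, Ivd (isovaleryl-CoA dehydrogenase), Mccc1 and Mccc2 (the subunits of methylcrotonyl-CoA carboxylase) and Auh (methylglutaconyl-CoA hydratase) fell at all 8 times and were lower DEGs at 28 and 30 min. The share of all genes that fell at all 8 times was not counted, and cannot exceed the 9.61% at 16 min. Mccc2 (chr13:99948532-100015639) had FPKM values of 63.9, 59.7 and 58.4 at 0 min, 40.3, 31.8 and 50.4 at 16 min, 37.6, 35.6 and 33.9 at 26 min, 19.9, 21.3 and 18.7 at 28 min, and 18.4, 16.2 and 15.2 at 30 min. The sham kidneys lay above all others listed, and the highest 28 min kidney lay below the lowest 26 min kidney. Mccc2 changed by -1.89 (SE 0.14, limma adjusted p = 1.51e-09) on the log2 scale at 30 min and -0.84 (SE 0.14, limma adjusted p = 0.000413) for 28 against 26 min. Ivd was at 129.9 ± 10.1 FPKM in sham (SD, n = 3) and 37.4 ± 2.56 at 30 min, and Mccc1 at 51.2 ± 3.59 and 15.7 ± 1.48. Auh fell to 43.8% of its sham mean at 28 min and 43.2% at 30 min.

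In the isoleucine and valine branches 6 of 7 enzymes fell at all 8 times (all genes, at most 9.61%). Aldh6a1, the methylmalonate semialdehyde dehydrogenase that ends valine breakdown (chr12:84430717-84451024), had FPKM values of 299, 318 and 289 at 0 min, 153, 145 and 252 at 16 min, 148, 174 and 146 at 26 min, 82.3, 84.2 and 84.97 at 28 min, and 60.8, 67.6 and 63.4 at 30 min. Of the 16 min kidneys, kidney 3 was the nearest to sham, and the 28 and 30 min kidneys did not overlap with any other. The log2 fold change of Aldh6a1 was -0.81 (SE 0.14, limma adjusted p = 0.000528) at 16 min, -2.22 (SE 0.14, limma adjusted p = 1.54e-10) at 30 min and -0.90 (SE 0.14, limma adjusted p = 0.000181) for 28 against 26 min. Acat1, the mitochondrial acetoacetyl-CoA thiolase, kept 52.8%, 29.8% and 24.0% of its sham mean after 26, 28 and 30 min. Hibadh, the 3-hydroxyisobutyrate dehydrogenase of valine, stood at 63.6% already at 16 min and at 35.2% at 30 min. Acadsb, Acad8 and Hibch, which act earlier on these chains, stood at 43.0%, 52.3% and 47.6% at 30 min.

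The exception was Hsd17b10, an X-linked mitochondrial dehydrogenase of isoleucine breakdown that is also a subunit of mitochondrial RNase P (chrX:152001896-152004442). Its FPKM values were 117, 113 and 128 at 0 min, 128, 114 and 121 at 16 min, 122, 117 and 107 at 26 min, 101, 106 and 99.1 at 28 min, and 93.8, 95.4 and 80.5 at 30 min. The 16 and 26 min kidneys overlapped with sham, and the 28 and 30 min kidneys lay below it. Its log2 fold change was 0.02 (SE 0.06, limma adjusted p = 0.86) at 16 min and -0.35 (SE 0.06, limma adjusted p = 7.78e-05) at 30 min, the smallest absolute change of the 42 enzymes at 30 min.

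Propionyl-CoA, the end product of isoleucine and valine, is carboxylated by Pcca and Pccb, and the carboxylated product is epimerized by Mcee. Pcca (chr14:122484365-122889944) had FPKM values of 54.5, 55.1 and 53.6 at 0 min, 34.1, 34.1 and 46.8 at 16 min, 36.8, 40.6 and 32.6 at 26 min, 22.9, 23.7 and 21 at 28 min, and 17.96, 17.96 and 19.6 at 30 min. The sham kidneys spanned a narrow range above all others, and the 28 min kidneys lay below the 26 min kidneys. The log2 fold change of Pcca was -0.56 (SE 0.11, limma adjusted p = 0.00146) at 16 min and -1.58 (SE 0.11, limma adjusted p = 5.90e-10) at 30 min. Pccb, the other subunit of the same carboxylase, fell to 51.9% of its sham mean at 30 min, where Pcca was at 34.0%, and was no DEG at any time (log2 fold change -0.90 (SE 0.09, limma adjusted p = 6.50e-08) at 30 min). The difference between the subunits was not tested. Mcee was at 76.4 ± 3.98 FPKM in sham (SD, n = 3), 58.4 ± 6.63 at 26 min and 33.9 ± 1.02 at 30 min.

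The tyrosine pathway held the deepest fall of all. Hpd, which turns 4-hydroxyphenylpyruvate into homogentisate (chr5:123171807-123182723), had FPKM values of 69.4, 59.99 and 77.4 at 0 min, 4.68, 3.07 and 12.5 at 16 min, 6.29, 2.81 and 3.43 at 26 min, 2.24, 1.62 and 1.95 at 28 min, and 2.06, 5.90 and 1.65 at 30 min. All clamped kidneys lay far below sham, and the highest of them was 16 min kidney 3. The mean was 9.79%, 6.06% and 4.65% of sham after 16, 26 and 30 min. The log2 fold change was -3.43 (SE 0.40, limma adjusted p = 1.82e-05) at 16 min, -4.62 (SE 0.40, limma adjusted p = 2.85e-08) at 28 min and -4.24 (SE 0.40, limma adjusted p = 3.28e-08) at 30 min, and Hpd was the only enzyme that was a lower DEG at 16 min. On this scale, with 1 FPKM added, the change of values this low is understated. Without 16 min kidney 3 the log2 fold change of Hpd at 16 min was -3.96, and in the fit of only the 16 and 0 min kidneys Hpd had an adjusted p of 0.079.

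The next enzymes of tyrosine breakdown were lower in steps. Hgd, the homogentisate dioxygenase (chr16:37579742-37632026), had FPKM values of 254, 261 and 271 at 0 min, 182, 165 and 200.03 at 16 min, 178, 173 and 166 at 26 min, 83.7, 99.3 and 96.5 at 28 min, and 49.6, 55.8 and 36.6 at 30 min. The sham, 26, 28 and 30 min kidneys formed 4 ranges that did not overlap, in falling order. Hgd changed by -0.53 (SE 0.11, limma adjusted p = 0.00268) on the log2 scale at 16 min, -0.89 (SE 0.11, limma adjusted p = 3.95e-05) for 28 against 26 min and -0.94 (SE 0.11, limma adjusted p = 6.43e-05) for 30 against 28 min. Gstz1, the maleylacetoacetate isomerase, stood at 69.3%, 43.5% and 29.1% of its sham mean at 26, 28 and 30 min. Fah, the hydrolase of the last step, stood at 58.8%, 39.7% and 30.6%.

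**Figure D3:**
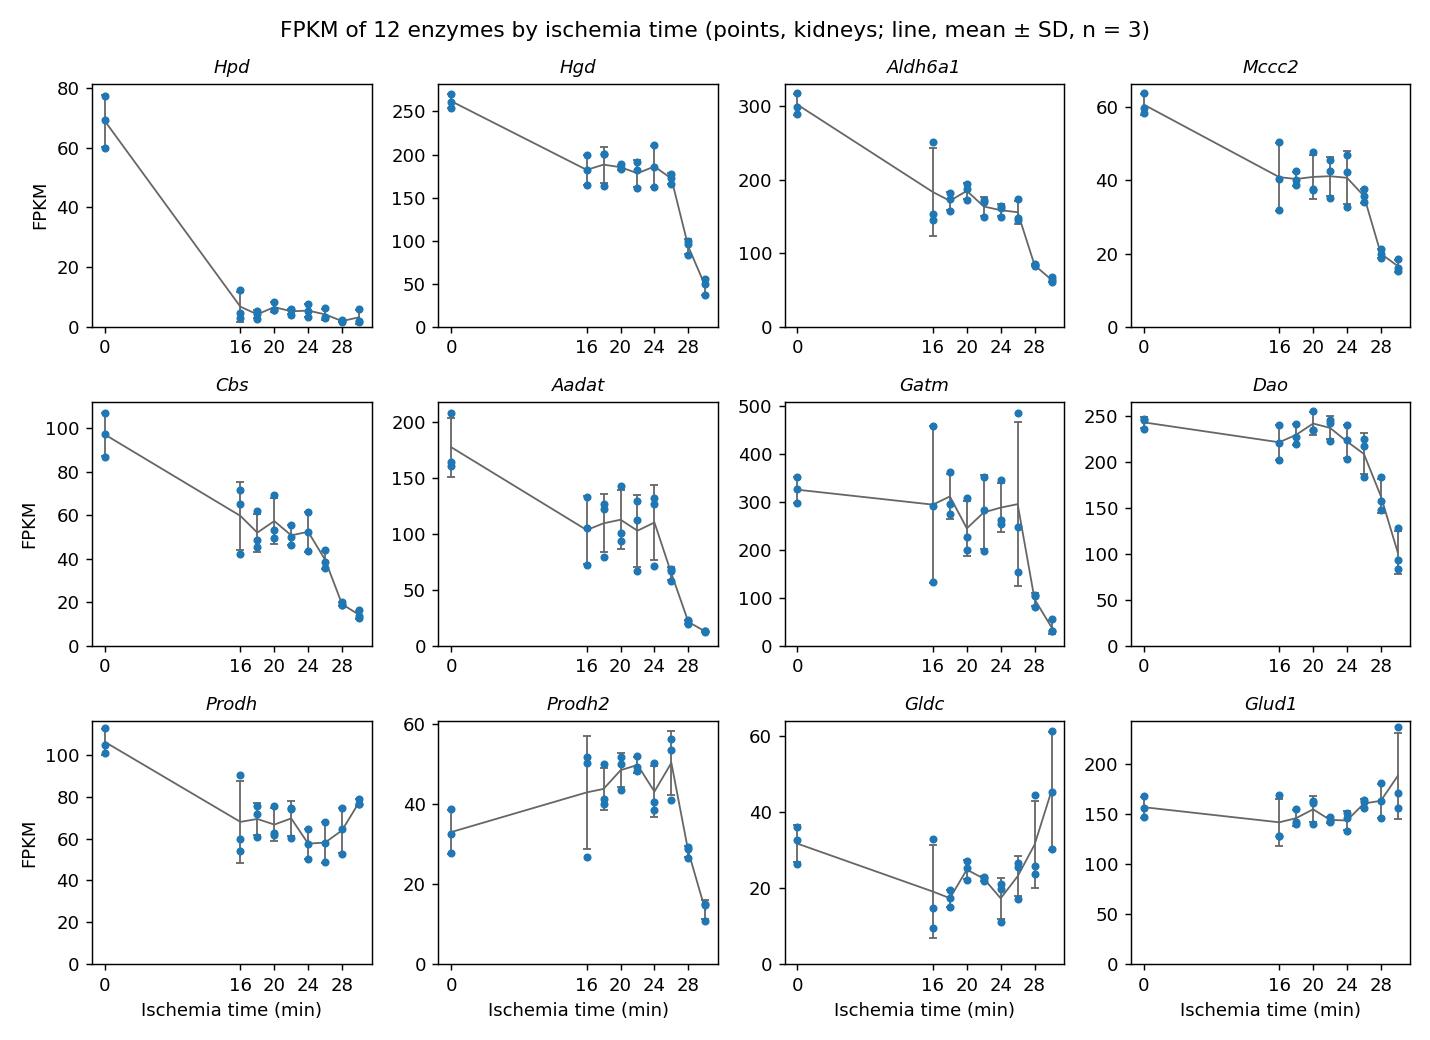
FPKM of 12 enzymes against ischemia time (min), with a point for each kidney and a line through the means (error bars, SD, n = 3), each panel on its own axis from 0. Hpd drops at 16 min from a mean of 68.9 to 6.75 FPKM. Hgd, Aldh6a1, Mccc2, Cbs and Aadat drop both at 16 min and at 28 min. Gatm, Dao and Prodh2 drop at 28 or 30 min. Hpd, Prodh, Gldc and Glud1 do not end at their lowest mean.

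Glycine and its methylated forms gave a mixed picture. Gnmt, which methylates glycine to sarcosine, fell at all 8 times and stood at 37.6% of its sham mean at 26 min and 16.4% at 30 min. Dmgdh, which turns dimethylglycine into sarcosine (chr13:93674436-93752823), had FPKM values of 49.6, 50.6 and 45.9 at 0 min, 30.9, 20.03 and 37.2 at 16 min, 25.04, 21 and 25.9 at 26 min, 10.3, 9.55 and 11.9 at 28 min, and 7.18, 7.44 and 6.81 at 30 min. The groups fell in order from sham to 30 min, with an overlap only between 16 and 26 min. For Dmgdh the log2 fold change was -0.81 (SE 0.17, limma adjusted p = 0.0023) at 16 min, -2.69 (SE 0.17, limma adjusted p = 1.68e-10) at 30 min and -1.14 (SE 0.17, limma adjusted p = 0.000138) for 28 against 26 min. Sardh, which takes the next step from sarcosine to glycine, did not pass from 16 to 26 min, with means between 95.8% and 103% of sham, and stood at 62.8% at 28 min and 43.4% at 30 min. Shmt1, the cytosolic serine hydroxymethyltransferase, stood at 99.4%, 82.7% and 49.9% at 26, 28 and 30 min.

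Of the subunits of the glycine cleavage system, Amt and Gcsh fell at 30 min and Gldc did not pass. Amt, the T protein, fell from 39.0 ± 3.77 FPKM in sham (SD, n = 3) to 17.4 ± 3.95 at 30 min, and Gcsh, the H protein, from 109 ± 2.08 to 56.7 ± 9.55. Gldc, the P protein that decarboxylates glycine, had means of 31.7 ± 4.86 FPKM in sham, 19.1 ± 12.2 after 16 min and 23.1 ± 5.21 after 26 min, then 31.4 ± 11.4 after 28 min and 45.6 ± 15.5 after 30 min. Against sham Gldc passed at neither 28 nor 30 min, with a log2 fold change of 0.41 at 30 min (95% interval -0.30 to 1.12, limma adjusted p = 0.339). The mean of 28 and 30 min was above that of 16 to 26 min, by a log2 fold change of 0.84 (SE 0.20, limma adjusted p = 0.00116). Within a kidney, the ratio of Gldc to Amt was 0.820 ± 0.162 in sham (SD, n = 3) and 0.884 ± 0.144 at 26 min, then 1.55 ± 0.614 at 28 min and 2.61 ± 0.682 after 30 min. The lowest ratio at 30 min, 1.86, was above the highest in sham, 0.939. At 16 min the ratio ran from 0.441 to 1.38, and the highest, kidney 3, was also above all sham kidneys.

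Both transsulfuration enzymes fell. Cbs, the cystathionine beta-synthase that commits homocysteine to cysteine (chr17:31612623-31637233), had FPKM values of 107, 97.3 and 86.97 at 0 min, 65.3, 42 and 71.8 at 16 min, 38.6, 35.9 and 43.96 at 26 min, 18.6, 18.6 and 20.1 at 28 min, and 16.4, 13.4 and 12.7 at 30 min. The sham kidneys lay above all others listed, and the 28 and 30 min kidneys lay below all others. For Cbs the change was -0.74 (SE 0.17, limma adjusted p = 0.00612) on the log2 scale at 16 min, -1.30 (SE 0.17, limma adjusted p = 2.76e-05) at 26 min and -2.72 (SE 0.17, limma adjusted p = 2.20e-10) at 30 min, and -1.05 (SE 0.17, limma adjusted p = 0.000376) for 28 against 26 min. Without 16 min kidney 2 the adjusted p of Cbs at 16 min was 0.0529. Cth, which releases cysteine from cystathionine, kept 69.1%, 48.2% and 30.3% of its sham mean after 26, 28 and 30 min, and fell again from 28 to 30 min (log2 fold change -0.66 (SE 0.14, limma adjusted p = 0.0043)).

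The proline and glutamate enzymes differed in direction. Prodh, the proline dehydrogenase (chr16:18071726-18089283), had FPKM values of 105, 101 and 113 at 0 min, 59.5, 54.05 and 90.3 at 16 min, 57.8, 67.9 and 48.6 at 26 min, 74.5, 52.8 and 64.5 at 28 min, and 76.4, 76.3 and 79 at 30 min. The sham kidneys were the highest, and the 30 min kidneys lay below sham and above all others listed but 16 min kidney 3. Its log2 fold change was -0.68 (SE 0.17, limma adjusted p = 0.00885) at 16 min, -0.88 (SE 0.17, limma adjusted p = 0.000618) at 26 min and -0.41 at 30 min (95% interval -0.76 to -0.05, limma adjusted p = 0.0505), which did not pass. Without 16 min kidney 2 the adjusted p of Prodh at 16 min was 0.0709. It did pass at 30 min under 5 of the alternatives, among them no quantile normalization (adjusted p = 0.0248).

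Prodh2, the hydroxyproline dehydrogenase (chr7:30493586-30513402), had FPKM values of 27.7, 32.6 and 38.8 at 0 min, 26.7, 51.8 and 50.4 at 16 min, 53.6, 56.2 and 41.1 at 26 min, 29.2, 28.7 and 26.7 at 28 min, and 14.9, 14.96 and 10.8 at 30 min. Kidneys 2 and 3 of 16 min and all 26 min kidneys lay above sham, and the 30 min kidneys lay below it. The mean of 16 to 26 min was above sham by a log2 fold change of 0.38 (SE 0.15, limma adjusted p = 0.0462), a call lost in 15 of the 21 fits that left out a kidney, with adjusted p = 0.263 without sham kidney 1 and 0.127 without sham kidney 2. Against sham at single times Prodh2 had log2 fold changes of 0.46, 0.50 and 0.51 at 20, 22 and 26 min, which did not pass (limma adjusted p = 0.0933, 0.0583 and 0.0526). They did pass without quantile normalization (adjusted p = 0.0441, 0.0256 and 0.0232), and those at 22 and 26 min also with a replicate block (0.0467 and 0.0418). From the mean of 16 to 26 min to 28 and 30 min Prodh2 fell by a log2 fold change of -1.21 (SE 0.11, limma adjusted p = 1.85e-08), which passed in all 31 alternative fits. Within a kidney, the ratio of Prodh2 to Prodh was 0.311 ± 0.0415 in sham (SD, n = 3), between 0.634 and 0.868 in the means of 16 to 26 min, 0.450 ± 0.0827 at 28 min and 0.176 ± 0.0338 at 30 min. All 30 min ratios lay below all sham ratios.

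Aldh4a1, the pyrroline-5-carboxylate dehydrogenase that yields glutamate from proline (chr4:139622871-139649691), had FPKM values of 197, 193 and 179.6 at 0 min, 131, 134 and 166 at 16 min, 147, 164 and 114 at 26 min, 97.8, 86.6 and 79.2 at 28 min, and 81.7, 59.5 and 56.9 at 30 min. All clamped kidneys listed lay below sham, with the 28 and 30 min kidneys the lowest. In limma Aldh4a1 changed by -0.39 (SE 0.13, limma adjusted p = 0.0477) on the log2 scale at 16 min and -1.46 (SE 0.13, limma adjusted p = 2.18e-08) at 30 min. The 16 min call for Aldh4a1 was lost without any 1 of the sham kidneys or without 16 min kidney 1 or 2 (adjusted p from 0.0633 to 0.169), and also with a replicate block (0.0512). Glud1, the glutamate dehydrogenase that releases ammonia from glutamate (chr14:34310727-34345033), had FPKM values of 147, 156 and 168 at 0 min, 128, 129 and 169 at 16 min, 164, 162 and 156 at 26 min, 181, 163 and 146 at 28 min, and 156, 237 and 171 at 30 min. Its groups overlapped with sham at all of these times, and 30 min kidney 2 was the highest. Glud1 rose at 30 min by a log2 fold change of 0.38 (SE 0.12, limma adjusted p = 0.0105). The rise was lost without 30 min kidney 2 (adjusted p = 0.094), without quantile normalization (adjusted p = 0.108), with FPKM rescaled to a constant sum (adjusted p = 0.13) and in a fit of only the 30 and 0 min kidneys (adjusted p = 0.0919).

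Both lysine enzymes fell at 30 min. Aadat, the aminoadipate aminotransferase, which also acts on kynurenine (chr8:60505843-60545677), had FPKM values of 208, 160.4 and 165 at 0 min, 105, 72.5 and 133 at 16 min, 67.2, 68.98 and 57.7 at 26 min, 19.4, 22.6 and 21.8 at 28 min, and 12.1, 12.9 and 12.6 at 30 min. The 5 groups listed did not overlap, and fell in order from sham to 30 min. Aadat changed by -0.77 (SE 0.26, limma adjusted p = 0.0396) on the log2 scale at 16 min, -1.42 (SE 0.26, limma adjusted p = 0.000368) at 26 min and -3.69 (SE 0.26, limma adjusted p = 5.90e-10) at 30 min. The 16 min call for Aadat was lost without any 1 of the 3 sham kidneys or without 16 min kidney 1 or 2 (adjusted p from 0.0616 to 0.228). The change of -1.60 (SE 0.26, limma adjusted p = 0.000277) for 28 against 26 min was the largest among the 42 enzymes. Aass, the aminoadipate semialdehyde synthase that starts lysine breakdown, was at 125 ± 2.75 FPKM in sham (SD, n = 3) and 65.1 ± 16.8 at 30 min, 52.0% of sham where Aadat was at 7.06%, a difference that was not tested.

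The D-amino acid oxidases passed against sham only at 28 or 30 min. Dao, the D-amino acid oxidase (chr5:113999635-114025675), had FPKM values of 246, 236 and 247 at 0 min, 202, 221 and 240.5 at 16 min, 225, 217 and 183 at 26 min, 147, 158 and 183 at 28 min, and 128, 93.1 and 82.9 at 30 min. The 16 min kidneys overlapped with sham, the 26 min kidneys lay below it, and the 30 min kidneys lay below all others. The log2 fold change of Dao was -0.19 at 26 min (95% interval -0.43 to 0.04, limma adjusted p = 0.205), -0.50 (SE 0.11, limma adjusted p = 0.000907) at 28 min and -1.19 (SE 0.11, limma adjusted p = 2.43e-08) at 30 min. Ddo, the D-aspartate oxidase, passed at 30 min alone, where it stood at 56.7% of its sham mean, after means between 109% and 119% from 16 to 26 min. Pipox, the pipecolate and sarcosine oxidase and likewise a peroxisomal enzyme, stood at 73.5%, 49.6% and 30.1% at 26, 28 and 30 min. For each of the 3 peroxisomal oxidases the change from 28 to 30 min passed, with log2 fold changes of -0.70, -0.68 and -0.72 (limma adjusted p = 0.000743, 0.00374 and 0.00318).

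Gatm, the arginine-glycine amidinotransferase of creatine synthesis (chr2:122594473-122611277), had FPKM values of 352, 298 and 327 at 0 min, 132, 291 and 459 at 16 min, 248, 485 and 153 at 26 min, 80.7, 105 and 104 at 28 min, and 54.8, 29.5 and 30.3 at 30 min. The 16 and 26 min kidneys were widely spread on both sides of sham, and the 28 and 30 min kidneys lay far below it. Gatm passed at no time from 16 to 26 min, and its log2 fold change was -1.83 (SE 0.41, limma adjusted p = 0.000971) at 28 min and -3.16 (SE 0.41, limma adjusted p = 2.03e-06) at 30 min. It was the only enzyme that was a lower DEG for 30 against 28 min, by -1.33 (SE 0.41, limma adjusted p = 0.0372), and the call was lost in 5 of the 6 fits that left out a kidney, all but that without 30 min kidney 1, with adjusted p up to 0.15, and in a fit of only these 2 groups (0.095). For 28 against 26 min its fall of -1.50 (SE 0.41, limma adjusted p = 0.0145) had an adjusted p of 0.0798 in a fit of only these 2 groups, 0.111 without 26 min kidney 2 and 0.0567 without 28 min kidney 1. Agxt2, a mitochondrial aminotransferase of alanine, glyoxylate and dimethylarginine, also passed at no time up to 26 min, and kept 84.2%, 39.1% and 22.8% of its sham mean after 26, 28 and 30 min.

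Of the neighbouring times, only 28 against 26 min and 30 against 28 min were tested, so the start of the deeper fall was not placed. Against sham, lower DEGs numbered 1 at 24 min and 5 at 26 min. For 28 against 26 min 30 enzymes fell, where 8.52% of all genes did, and 5 were lower DEGs (all genes, 1.06%): Aadat, Gatm, Dmgdh, Agxt2 and Cbs. For 30 against 28 min 13 enzymes fell (all genes, 6.77%) and 1 was a lower DEG (0.649%). Without 28 min kidney 2, 8 fell for 30 against 28 min, without 30 min kidney 3, 9 did, and in the limma fit of only these 2 groups none passed, with 23 at an unadjusted p under 0.05. From 16 to 26 min no enzyme passed in limma, and no gene at all did, with 7 enzymes at an unadjusted p under 0.05 and a median log2 fold change of -0.13, and 3 passed without 16 min kidney 2. Without 16 min kidney 3 none passed and the median was 0.01. A straight trend over 16 to 26 min passed for none of the enzymes and for 0.0055% of all genes in each direction, with 7 enzymes at an unadjusted p under 0.05. Without 16 min kidney 2 the trend passed for 4 enzymes, Acat1, Cbs, Ivd and Hibadh. The shares of all genes in the fits that left out a kidney are not given here, so these counts cannot be set beside them.

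The 2 steps were also compared directly, as the early step, the mean of 16 to 26 min against sham, and the late step, the mean of 28 and 30 min against that of 16 to 26 min. In the early step 32 enzymes fell (all genes, 20.6%) and 1 rose (all genes, 17.6%). In the late step 39 fell (all genes, 22.5%) and 2 rose (29.6%). The late step was more negative than the early one for 21 enzymes (all genes, 15.3%) and less negative or positive for 5 (20.9%). Both steps use the kidneys of 16 to 26 min, so the values of the steps are not independent, and the test is that of their difference. The late step also held a fall of all 10 proximal tubule markers, of which 5 fell in the early step.

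The enzymes fell into a few combinations. These were counted for the enzymes alone, so no share over all genes stands beside the counts. Both steps passed downward, with a deeper late step, for 13 enzymes, among them Hgd, Cbs, Dmgdh and Aadat. Both passed with no called difference for 15, among them Bckdha, Aldh6a1, Fah and Gnmt, for which the difference for Aldh6a1 was -0.24 (95% interval -0.54 to 0.06, limma adjusted p = 0.202). For 7 enzymes the late step alone passed and was deeper: Hsd17b10, Sardh, Pipox, Dao, Ddo, Gatm and Agxt2. Of these, only Pipox passed against sham at any single time from 16 to 26 min, and it stood at 73.5% of sham at 26 min. Gatm had an early step of -0.33 (SE 0.31, limma adjusted p = 0.449) and a late step of -2.16 (SE 0.24, limma adjusted p = 1.92e-07). Hpd went the other way, with an early step of -3.60 (SE 0.31, limma adjusted p = 1.02e-07), a late step of -0.83 (SE 0.23, limma adjusted p = 0.00485) and a difference of 2.77 (SE 0.42, limma adjusted p = 4.17e-05). Hibadh also had the larger early step, -0.82 against -0.60, a difference that was lost without quantile normalization (adjusted p = 0.769). Prodh fell in the early step and did not pass in the late one. Gldc had an early fall of -0.72 (SE 0.26, limma adjusted p = 0.0329), lost without sham kidney 1, 2 or 3 (adjusted p = 0.0511, 0.156 and 0.098) and without quantile normalization (0.0548), and rose in the late step. Glud1 rose in the late step alone, by 0.35 (SE 0.07, limma adjusted p = 0.000193), and the difference of its steps was lost without quantile normalization (adjusted p = 0.0676).

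**Figure D4:**
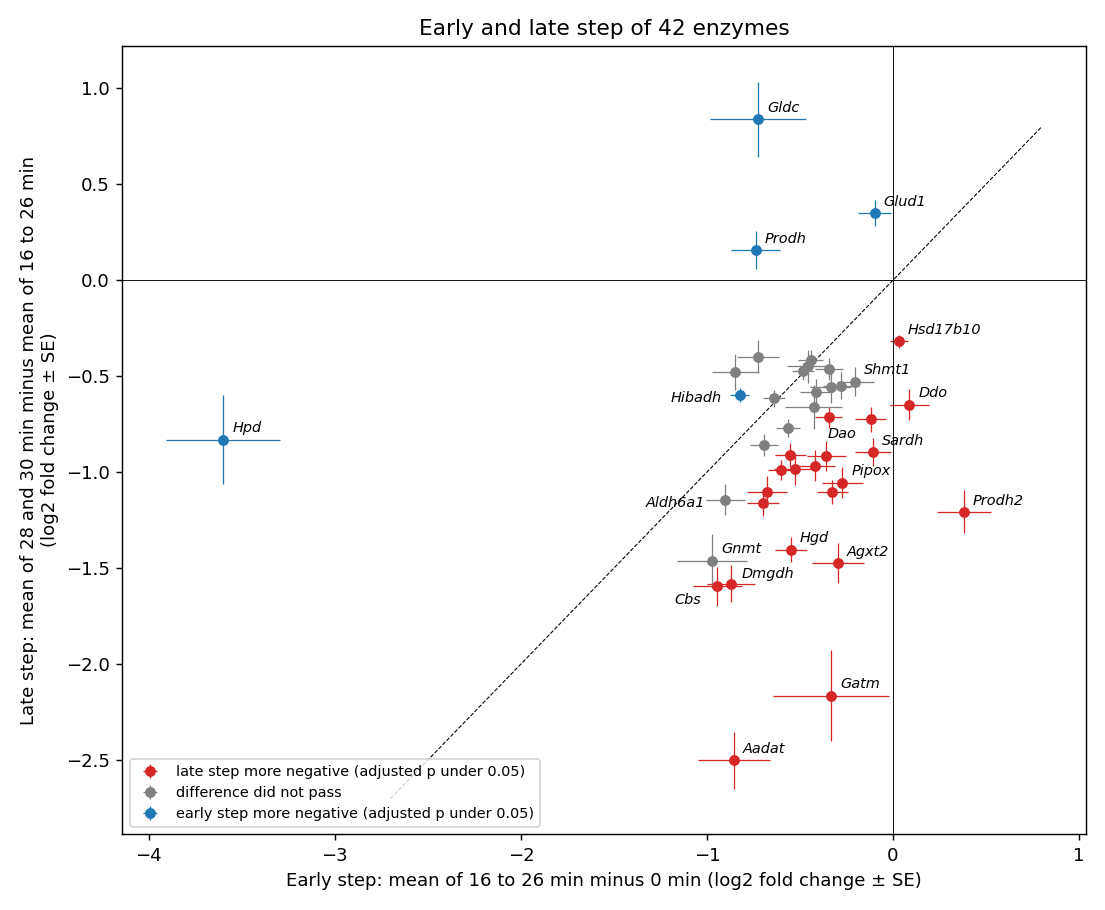
Late step (y axis, log2 fold change) against early step (x axis, log2 fold change) for the 42 enzymes, with bars for the SE, a dashed line where both are equal, and colours for the limma test of their difference. The 21 red points lie below the dashed line, with Aadat and Gatm the lowest, and the 5 blue points, Hpd, Gldc, Glud1, Prodh and Hibadh, lie above it.

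The other genes of amino acid metabolism, a list of 60 that holds further catabolic enzymes and also synthetic ones, held calls in both directions. At 16 min 15 of the 60 fell (all genes, 9.61%) and 9 rose (9.43%). At 30 min 39 fell (all genes, 25.4%) and 12 rose (26.9%), with a median log2 fold change of -0.73. Among the largest decreases at 30 min were those of Uroc1, the urocanate hydratase of histidine, Bhmt2, a homocysteine methyltransferase, and Csad, of taurine synthesis, with log2 fold changes of -3.37, -2.73 and -2.67 (limma adjusted p = 1.36e-08, 1.38e-10 and 4.79e-10). Among the largest increases were those of Arg2, the mitochondrial arginase, Phgdh and Psat1, of serine synthesis, and Asns, the asparagine synthetase, with log2 fold changes of 2.63, 2.09, 1.71 and 2.06 (limma adjusted p = 3.99e-05, 1.48e-07, 2.51e-07 and 7.25e-06). Phgdh went from 7.23 ± 1.64 FPKM in sham (SD, n = 3) to 21.8 ± 7.81 at 16 min and 36.9 ± 13.5 at 30 min.

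The markers of other cells were called as follows at 30 min, where 25.4% of all genes fell and 26.9% rose in the fit of all kidneys. Of 4 injured tubule genes 3 rose, and their summed FPKM was between 15.6 and 89.9 in sham kidneys and between 2508 and 4910 at 30 min. Of 8 leukocyte genes 4 rose and 1 fell, with sums between 18.8 and 27.8 in sham and 67.3 and 95.5 at 30 min. Of 4 endothelial genes 3 rose, of 4 fibroblast genes 3 rose and 1 fell, and of 3 podocyte genes 1 rose. Of 3 loop of Henle genes 2 fell, of 3 distal tubule genes 3 fell, of 5 collecting duct genes 2 fell, and of 5 liver genes 3 fell. The loop of Henle sum was between 504 and 2190 at 30 min, the highest being kidney 3. Without this kidney, an alternative chosen after seeing the data, 2 of the 3 loop of Henle genes fell, 3 of the collecting duct genes fell, 3 leukocyte genes rose and 2 fell, 1 liver gene rose, the podocyte gene that rose no longer passed, and the other counts were the same. Their part in the values of the enzymes was not tested.

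Promoters, from 250 bases before to 50 after a start site (RefSeq, GRCm38.p6), were at hand for 39 of the 42 enzymes, and 13 motifs, chosen with the values known, were searched on both strands. The element CAAAGTCCA, of the type bound by the nuclear receptor HNF4A, was found for 3 of the 39 enzymes (7.69%), Aadat, Agxt2 and Pipox, and for 0.555% of 27025 genes. The sites are shown because these enzymes stood at 7.06%, 22.8% and 30.1% of sham at 30 min. Hpd, Gatm, Cbs and Dmgdh, at 4.65%, 11.7%, 14.6% and 14.7%, had no match to the element. A link between the element and the fall was not tested. Capitals mark the element, written on the strand of the gene, so that it reads as its reverse complement in Aadat and Pipox.
Aadat, chr8:60506042-60506070, plus strand: cctctgtggaTGGACTTTGtcccttctgc
Agxt2, chr15:10358502-10358530, plus strand: cttctaatatCAAAGTCCAgtccagtcag
Pipox, chr11:77893839-77893867, minus strand: ctagtttagcTGGACTTTGcctccctcct
The element begins 72 bases before the start that the promoter table uses for Aadat and 21 or 67 bases before the 2 it uses for Agxt2, and lies just past the start in Pipox. The RefSeq gene spans of Aadat and Agxt2 begin upstream of these starts. In the GENCODE annotation the Aadat and Pipox sites lie in the UTR of an annotated transcript. The other motifs, with their shares among the enzymes and among all genes, were CAAAGTCC (7.69% and 1.63%, in the same 3 enzymes), which CAAAGTCCA contains, CAAAG, which both contain (61.5% and 57.4%), GGTCAAAG, which also contains it (7.69% and 1.12%, in Aldh6a1, Amt and Dao), a direct repeat 1 element of nuclear receptors (0% and 0.773%), GTTAAT, the core of the HNF1 site (5.13% and 8.24%), a longer and a palindromic HNF1 site that contain it (2.56% and 0.47%, 0% and 0.0111%), TATAAA (5.13% and 15.7%), TGACGTCA (0% and 2.03%), CCAAT (64.1% and 41.1%), TTGCGCAA (0% and 0.207%) and CCGCCC (59.0% and 38.2%). A match is a run of letters and not a measured site.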

How the data were processed

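RNA-Seq libraries of 27 left kidneys were made for the DNBSEQ-G400 platform. The authors deposited 1 table of linear FPKM values per gene symbol and kidney, rounded to 2 decimals. The submitters' processing notes name Bowtie2, RSEM, DESeq2 and GRCm38.p6, without their versions. The annotation is not given in the sources used here. The paper describes quantile normalization and log2 values, and the deposited FPKM values are neither. Without read counts in the sources used here, depth is unknown, and no interval for counting error can be given. Column sums ranged from 512453 to 554036 FPKM.

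Groups are the ischemia times in the labels. The replicates are separate mice, and the labels name no batch. The 42 enzymes, their pathway groups, the other gene lists and the motifs were chosen with earlier results of these data known. Values were taken as log2(FPKM + 1), quantile normalized and fitted in limma 3.58.1 (R 4.3.3) with 1 mean per ischemia time and empirical Bayes, over the 18188 genes with a value above 0 in 3 or more kidneys, with Benjamini-Hochberg adjustment over these genes. Values in every kidney at 0, 16, 26, 28 and 30 min are given for the enzyme of each pathway with the largest change at 30 against 0 min and that with the largest at 28 against 26 min, and for the 3 enzymes with the smallest change at 30 min. Gldc, Sardh, Pipox and Ddo, outside this rule, are described after their values were seen. Of the other genes of amino acid metabolism, those with the largest changes at 30 min are named, except for a result that is not reported here. The limma fit was also run on simulated data with changes planted at 28 and 30 min. Only the calls for 28 against 26 min and 26 against 16 min were scored there, and not the early and late step. The alternatives were no quantile step, rescaling each kidney to the same total, a smaller pseudocount (0.1 FPKM), other filters, eBayes with a trend, a fit of 2 groups, a replicate block and leaving out each kidney. All 42 symbols matched the RefSeq gene table of GRCm38.p6. Python 3.11.15 and matplotlib 3.10.9 were used for figures.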

Additional observations from a re-analysis of the deposited data

How the results depend on the processing

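No called value of an enzyme changed its direction under the alternatives. The median of the 42 enzymes for 26 against 16 min, where none was called, went from -0.13 to 0.01 without 16 min kidney 3. The counts of DEGs among the 42 enzymes that moved by more than 1.5 times were small ones. In the fit of only the 2 groups compared the count was 0 in place of 1 at 16 min and 0 in place of 1 for 30 against 28 min. With no quantile normalization, and with each kidney rescaled to the same total, it was 1 in place of 2 at 22 min and 2 in place of 1 for 30 against 28 min. With a pseudocount of 0.1 FPKM it was 2 in place of 1 at 24 min and for 30 against 28 min. Leaving out 1 kidney at a time gave 1 to 5 DEGs at 16 min, 1 to 2 at 18 min, 1 to 1 at 20 min, 1 to 3 at 22 min, 2 to 4 at 24 min, 5 to 6 at 26 min, 22 to 26 at 28 min, 31 to 35 at 30 min, 4 to 6 for 28 against 26 min, 0 to 2 for 30 against 28 min and 0 to 0 for 26 against 16 min. It gave 27 to 34 enzymes called in the early step, 41 to 42 in the late step, 0 to 4 in the trend and 23 to 28 in the difference of the steps. The shares of all genes in these fits are not given here. The 5 at 16 min came without 16 min kidney 3, the 4 at 24 min without 24 min kidney 2, and the 4 in the trend without 16 min kidney 2. The 0 for 30 against 28 min came without 28 min kidney 2 or without 30 min kidney 3. The cause of these moves was not tested, other than that fewer kidneys or groups entered. A replicate block (replicate number as a term) left all of these counts within 1.5 times, with 1 DEG at 16 min, 24 at 28 min and 32 at 30 min, and ended the 16 min calls of Aldh4a1, Mccc1 and Cth (limma adjusted p = 0.0512, 0.0536 and 0.0562). Kidneys of the same replicate number had a mean correlation of deviations of 0.00868 (range -0.416 to 0.48). For kidneys of different numbers it was -0.00455 (range -0.524 to 0.519). A mean over all pairs showed no pairing by number, and cannot exclude one within some groups. Among all genes, the share of DEGs of the early step that were lower was 39.3%, and 26.83% with each kidney rescaled to the same total. The 3 kidneys a group and the unknown depth limit what could be called.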
